A study of Mus musculus with 12 samples.

Results

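The Ces2 and Ces3 carboxylesterase genes are a family of 8 listed genes, Ces2a, Ces2b, Ces2c, Ces2d-ps, Ces2e, Ces2g, Ces3a and Ces3b, that lie close together on mouse chromosome 8. They were picked by gene symbol in the platform's annotation of the probe sets, which found 7 of the 8, each with 1 probe set, out of 18784 named genes and 21212 probe sets. No symbol was given there for Ces2c. The probe set numbered 234671 carries the RefSeq gene ID of Ces2c, and for 18743 of the 18786 probe sets with 1 symbol the number is the annotated Entrez gene ID. Its values are given apart under its number and enter no count of the family.

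Liver RNA of 12 mice was hybridised to Affymetrix whole-transcript arrays, 1 array per mouse and 3 mice in each of 4 groups: C57BL/6J females, C57BL/6J males, KK females and KK males. KK is an inbred line prone to obesity and diabetes, labelled KK/HIJ in one field and KK/J in another, and C57BL/6J is a common laboratory strain. All were 8 weeks old on a chow diet, spent 3 days in single cages, went without food for 4 hours and were perfused with PBS, and no group carried a transgene or received an agent. The large liver lobe was sampled, so each value is an average over all cells of that piece, in which fewer cells of a type and less RNA per cell cannot be told apart.

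Carboxylesterases are serine hydrolases of the endoplasmic reticulum that split ester, amide and thioester bonds. In liver and intestine they activate ester prodrugs, detoxify xenobiotic esters and hydrolyse lipid esters, and several mouse Ces2 enzymes act on diacylglycerol and monoacylglycerol. The mouse family grew by tandem duplication, so that it holds several near copies where humans have a single CES2 gene, and a probe set for one copy can also bind RNA of another. The values of single members, above all those of the pseudogene Ces2d-ps, are therefore uncertain as to the gene. Whether a lower signal in KK came from less RNA or from weaker binding to the probes was not tested. In older work the name Ces3 also stood for the triacylglycerol hydrolase now called Ces1d, which is not a member here.

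Promoter sequences from RefSeq (build GRCm38.p6) were held for 5 of the 8 genes. The 250 bases before the start site of Ces2a (chr8:104733753-104734002, plus strand), Ces2e (chr8:104926010-104926259, plus strand), Ces2g (chr8:104961468-104961717, plus strand) and Ces3b (chr8:105083505-105083754, plus strand) are shown because these genes stand for the different patterns described below: lower in KK (Ces2a, Ces3b), not called between strains but higher in KK males than females (Ces2e), and called in no comparison (Ces2g). Capitals mark the longest run shared by the 3 Ces2 promoters shown and the matches to the motifs named after them.
Ces2a: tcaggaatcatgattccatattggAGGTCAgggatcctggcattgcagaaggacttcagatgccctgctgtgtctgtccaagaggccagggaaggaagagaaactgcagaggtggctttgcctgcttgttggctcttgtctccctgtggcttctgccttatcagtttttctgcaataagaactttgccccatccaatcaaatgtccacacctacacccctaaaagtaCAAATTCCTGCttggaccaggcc
Ces2e: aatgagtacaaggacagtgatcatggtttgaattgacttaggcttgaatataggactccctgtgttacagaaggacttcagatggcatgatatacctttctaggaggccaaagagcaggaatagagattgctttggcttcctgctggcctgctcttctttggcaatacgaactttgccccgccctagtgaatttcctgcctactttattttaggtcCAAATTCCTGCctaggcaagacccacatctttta
Ces2g: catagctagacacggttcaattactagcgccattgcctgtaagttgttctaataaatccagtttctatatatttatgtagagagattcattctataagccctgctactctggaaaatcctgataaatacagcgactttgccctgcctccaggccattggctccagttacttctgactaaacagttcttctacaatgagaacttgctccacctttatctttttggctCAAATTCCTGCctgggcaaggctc
Ces3b: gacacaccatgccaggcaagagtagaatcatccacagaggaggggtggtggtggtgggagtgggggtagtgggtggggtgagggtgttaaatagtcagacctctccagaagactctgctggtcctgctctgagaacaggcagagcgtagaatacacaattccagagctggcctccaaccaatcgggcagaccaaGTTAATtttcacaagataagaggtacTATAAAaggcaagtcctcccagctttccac
The run CAAATTCCTGC stands at position -23 in Ces2a, -34 in Ces2e and -24 in Ces2g, counted with the first transcribed base as 0. It is not in the Ces2c promoter, which was also held. It was found by comparing these 3 promoters, so its share is no test of rarity. It occurs on either strand in 8 of 32851 promoters of that length (0.0244%), these 3 included. It is shared by genes whose levels followed different patterns. The 4 motifs searched on both strands were AGGTCA and AGTTCA, half-sites of nuclear receptors, GTTAAT, a half-site of HNF1, and TATAAA, the TATA box. AGGTCA was found in Ces2a at position -226 and is held by 14.0% of all promoters, and AGTTCA (11.8%) was in none of the 5. GTTAAT at position -56 (6.43%) and TATAAA at position -30 (12.4%) were found in Ces3b alone among the 5 promoters. These are matches of letters and not measured sites.

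The arrays were alike in scale, with medians of 5.9 to 6.03 log2 and interquartile ranges of 2.64 to 2.97. Absent transcripts read between 3.79 and 4.66, the span of 3 Y-linked genes on the 6 arrays of females. All 10 hepatocyte markers were measured, and their mean log2 level lay between 12.90 and 13.02 in every array, while that of 9 enterocyte markers lay between 5.25 and 5.51. Enterocyte markers were looked at because Ces2 genes are also active in intestine, and by limma none of the 9 was called between the strains and none had an unadjusted p under 0.05. In the 4 group means the 9 ranged from 3.73 for Sis to 7.83 for Fabp2, and Cdx1 read 7.42 to 7.72, so not all of them were at the level of absent transcripts.

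**Figure D1:**
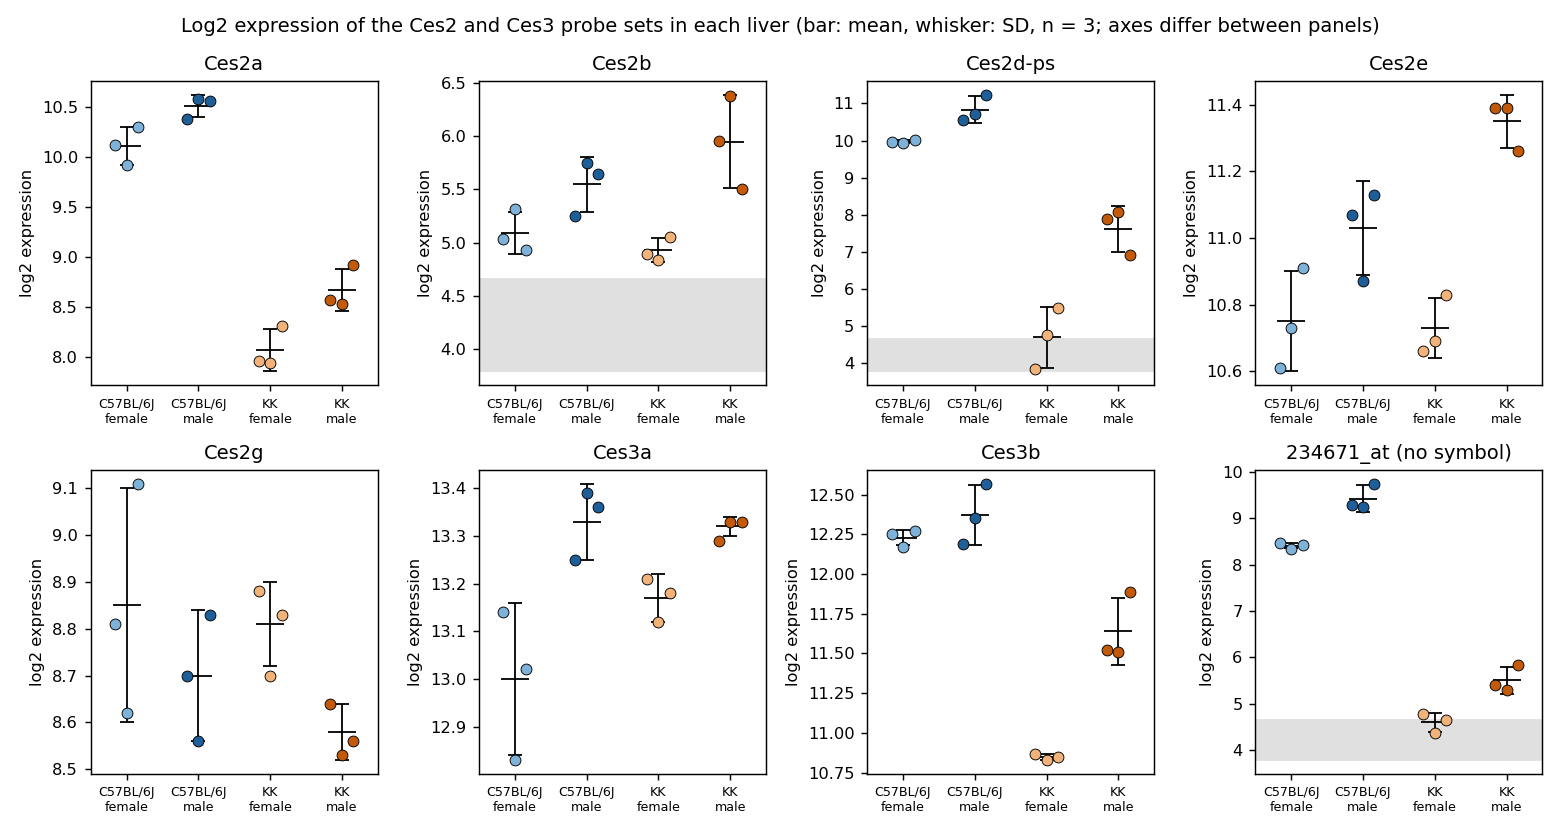
Log2 expression of the 7 family members and of the probe set numbered 234671 in each of the 12 livers, by strain and sex; points are mice, bars the mean and whiskers the SD of 3 mice, and the grey band spans 3.79 to 4.66, the readings of Y-linked genes in females. Ces2a, Ces2d-ps, Ces3b and probe set 234671 sit lower in every KK liver than in any C57BL/6J liver, while Ces2b, Ces2e, Ces2g and Ces3a overlap between the strains.

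The comparison of KK with C57BL/6J asks which genes of the family differ between an obesity-prone strain and the reference strain. Of the 7 members, 3 fell in KK over both sexes (Ces2a, Ces2d-ps and Ces3b), 0 rose and 4 were not called, where limma called 11.7% of all probe sets and 6.31% as lower. The median difference of the 7 was -0.08 log2, against 0.008 over all probe sets. The same 3 members fell in females, where 6.5% of probe sets were called and 3.31% as lower, and in males, where 5.15% were called and 3.06% as lower.

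Ces2a encodes a hydrolase of xenobiotic and lipid esters whose transcription is induced through the receptor PXR. Its log2 level was 10.12, 9.92 and 10.30 in C57BL/6J females, 10.38, 10.58 and 10.56 in C57BL/6J males, 7.96, 7.94 and 8.31 in KK females and 8.57, 8.53 and 8.92 in KK males. The 6 KK values all lay below the 6 C57BL/6J values, a separation seen in that direction for 3.32% of probe sets, and the groups ran in the order C57BL/6J males, C57BL/6J females, KK males, KK females with no overlap between neighbours. The difference was -1.94 log2 over both sexes (SE 0.09, 3.84-fold lower in KK, adjusted p = 7.04e-08 by limma). It was -2.04 in females (95% interval -2.33 to -1.75) and -1.84 in males (-2.13 to -1.54).

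Ces2d-ps, annotated as a transcribed pseudogene and therefore without a known enzyme, had the widest range of the family. It read 9.96, 9.93 and 10.01 in C57BL/6J females and 10.54, 10.71 and 11.23 in C57BL/6J males, but 3.84, 4.77 and 5.49 in KK females and 7.89, 8.07 and 6.92 in KK males. The 4 groups did not overlap, and KK female 1 lay within the range of absent transcripts. The SD was 0.83 in KK females, 0.62 in KK males, 0.36 in C57BL/6J males and 0.04 in C57BL/6J females. The fitted strain difference was -5.27 log2 in females (SE 0.37, adjusted p = 3.66e-06 by limma) and -3.20 in males (SE 0.37, adjusted p = 0.000263). With KK female 1 raised to the top of the absent range, 4.66, the mean of Ces2d-ps was 32.0-fold lower in KK females. This is a point value that carries no sampling error, and a higher level taken for absent transcripts would make it smaller.

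Ces3b encodes a carboxylesterase abundant in liver, whose own substrates are less well known. Its log2 level was 12.25, 12.17 and 12.27 in C57BL/6J females and 12.19, 12.35 and 12.57 in C57BL/6J males, whose values overlapped. It was 10.87, 10.83 and 10.85 in KK females and 11.52, 11.51 and 11.89 in KK males, so that both KK groups lay below both C57BL/6J groups and did not overlap each other. The KK females were the tightest group, with an SD of 0.02. Ces3b was lower in KK by 2.61-fold in females (-1.38 log2, SE 0.11, adjusted p = 1.11e-05 by limma) and by 1.66-fold in males (-0.73, SE 0.11, adjusted p = 0.00189).

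The other 4 members were not called between the strains in either sex. Ces2e, a glyceride lipase of liver and intestine, read 10.61, 10.73 and 10.91 in C57BL/6J females and 10.66, 10.69 and 10.83 in KK females, which overlapped. In males it read 11.07, 10.87 and 11.13 in C57BL/6J and 11.39, 11.39 and 11.26 in KK, which did not, as for 21.7% of probe sets either way. The male difference was 0.32 log2 (SE 0.09, adjusted p = 0.0762 by limma), and it was called after quantile normalization (adjusted p = 0.0366) and cyclic loess normalization (0.0215) and with array weights (0.0113), within a range of 0.0113 to 0.256 over its alternatives. Array weights also gave a call for Ces2e over both sexes (0.23, adjusted p = 0.0194), against 0.15 (adjusted p = 0.199) without them. Ces3a, the close relative of Ces3b, differed by 0.17 in females (95% interval 0.00 to 0.34) and by -0.01 in males (-0.19 to 0.16), a sign that turned to 0.08 after quantile and 0.04 after cyclic loess normalization. Ces2b differed by -0.17 in females (-0.59 to 0.26) and 0.40 in males (-0.03 to 0.82), and Ces2g by -0.04 (-0.28 to 0.21) and -0.12 (-0.37 to 0.13). A difference of the size seen for Ces2a lay outside the intervals of Ces3a and Ces2g. The C57BL/6J means of Ces2b were only 5.09 in females and 5.55 in males, while absent transcripts read up to 4.66. A fall of that size could therefore not have been read for Ces2b, and its intervals do not exclude one.

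**Figure D2:**
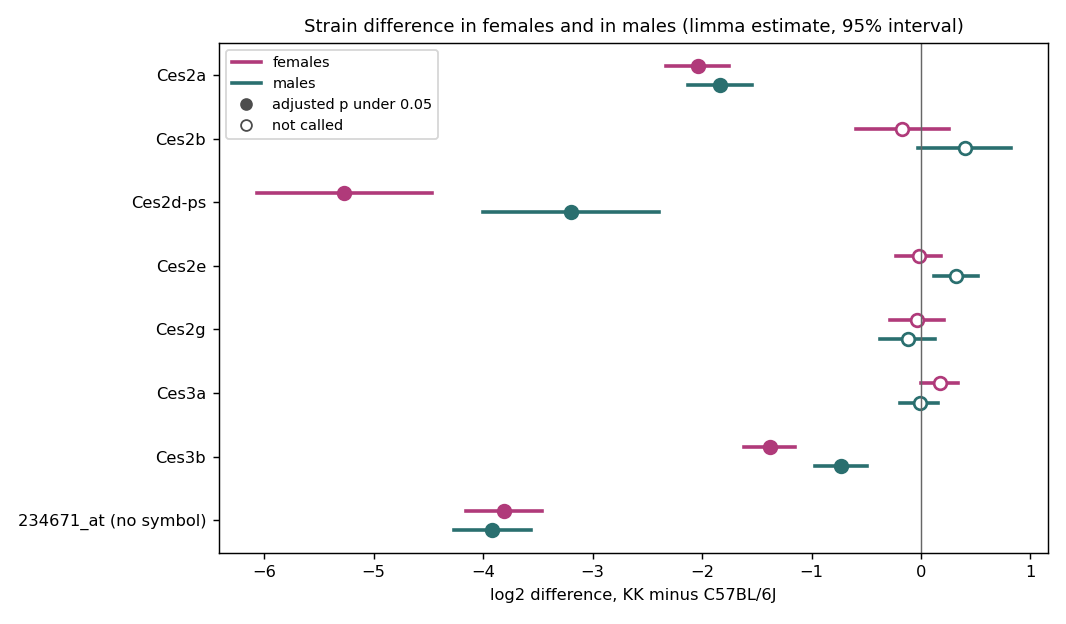
Strain difference (KK minus C57BL/6J, log2) of each member and of probe set 234671 in females and in males, with 95% intervals from limma; filled points have an adjusted p under 0.05. Ces2a, Ces2d-ps and Ces3b are filled and below 0 in both sexes, Ces2d-ps reaching -5.27 in females, whereas Ces2b, Ces2e, Ces2g and Ces3a stay within 0.40 of 0.

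The probe set numbered 234671 was lower in KK, as were the members that fell. It read 8.46, 8.34 and 8.42 in C57BL/6J females, 9.28, 9.24 and 9.75 in C57BL/6J males, 4.77, 4.38 and 4.65 in KK females and 5.40, 5.29 and 5.84 in KK males. The groups did not overlap, and KK females 2 and 3 lay within the range of absent transcripts. The strain difference was -3.81 log2 in females and -3.92 in males (SE 0.16 each, adjusted p = 5.36e-08 and 6.01e-08 by limma). With the low arrays raised to 4.66 as above, the mean of this probe set was 13.1-fold lower in KK females, and it was 15.1-fold lower in KK males. The mean of 4 exocrine pancreas markers read 5.02 to 5.34 on the arrays, so absent transcripts can read above 4.66. The KK males of this probe set are therefore also not shown to be detected. With a higher level taken for absent transcripts these folds would be smaller. Ces2c, whose gene ID the number is, encodes an acylcarnitine and glyceride hydrolase.

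The comparison of males with females asks whether the family is sex-biased in each strain. In KK, 5 of the 7 members rose in males (Ces2a, Ces2b, Ces2d-ps, Ces2e and Ces3b) and 0 fell, where limma called 2.17% of all probe sets and 0.698% as higher in males. The 2 sexes of KK did not overlap for any of the 7 (18.6% of probe sets either way). The median male minus female difference of the 7 was 0.62 log2 in KK, against 0.029 over all probe sets. In C57BL/6J, 0 of the 7 were called by limma, where 1.03% of probe sets were, and 5 were higher in males at an unadjusted p under 0.05, as were 3.38% of all probe sets. Their median was 0.33, against 0.006. Both strains thus gave 6 of 7 members a positive difference, Ces2g being the exception in each.

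Ces2b, a less studied member of the Ces2 group, showed the pattern at a low level: it read 4.89, 4.84 and 5.05 in KK females and 5.96, 6.38 and 5.50 in KK males, with no overlap. In C57BL/6J it read 5.03, 5.32 and 4.93 in females and 5.25, 5.75 and 5.65 in males, which overlapped. All 12 values lay above the range of the 3 Y-linked genes, the lowest at 4.84. The mean of 4 exocrine pancreas markers, however, read 5.02 to 5.34 on the arrays, so that range does not show that Ces2b was detected. The sex difference was 1.02 log2 in KK (SE 0.19, 2.02-fold, adjusted p = 0.0198 by limma) and 0.46 in C57BL/6J (SE 0.19, adjusted p = 0.551).

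The KK differences of the other members that rose in males were 2.93 log2 for Ces2d-ps (SE 0.37, adjusted p = 0.00167 by limma, 6.31-fold between the means with KK female 1 raised to 4.66), 0.79 for Ces3b (SE 0.11, adjusted p = 0.00283), 0.62 for Ces2e (SE 0.09, adjusted p = 0.00493) and 0.60 for Ces2a (SE 0.13, adjusted p = 0.0384). In C57BL/6J the same genes differed by 0.86, 0.14, 0.28 and 0.39, and their adjusted p-values lay between 0.343 and 0.922. Ces2a and Ces2b were the calls with the least margin. Ces2a had an adjusted p of 0.117 when the 2 KK groups were fitted alone, and of 0.0535 to 0.177 without C57BL/6J female 1, C57BL/6J male 2 or 3, KK female 1 or 2, or any one KK male. Ces2b had an adjusted p of 0.0724 with the 2 KK groups alone, and of 0.0532 to 0.0884 without KK female 1 or 2 or KK male 1 or 2. The count of 5 was 3 with the KK groups alone and without KK female 1, KK female 2, KK male 1 or KK male 2, and the 3 were Ces2d-ps, Ces2e and Ces3b each time.

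Ces3a and Ces2g were not called between the sexes. Ces3a read 13.14, 12.83 and 13.02 in C57BL/6J females and 13.25, 13.39 and 13.36 in C57BL/6J males, with no overlap, as for 13.1% of probe sets either way. Its difference of 0.33 log2 there (SE 0.08, adjusted p = 0.0864 by limma) was called with an intensity trend and a robust prior (adjusted p = 0.0265) and without C57BL/6J female 1 (0.047), within a range of 0.0265 to 0.276 over its alternatives. In KK it was 0.15 (95% interval -0.03 to 0.32). Ces2g read 8.88, 8.70 and 8.83 in KK females and 8.64, 8.53 and 8.56 in KK males, and its difference was -0.23 in KK (95% interval -0.48 to 0.02) and -0.15 in C57BL/6J (-0.40 to 0.10). Probe set 234671 was called higher in males of both strains, by 1.01 log2 in C57BL/6J (SE 0.16, adjusted p = 0.00745 by limma) and by 0.91 in KK (SE 0.16, adjusted p = 0.0133, and 0.0514 with the KK groups alone). The KK difference between the means was 1.76-fold with KK females 2 and 3 raised to 4.66, and a higher level would make it smaller.

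**Figure D3:**
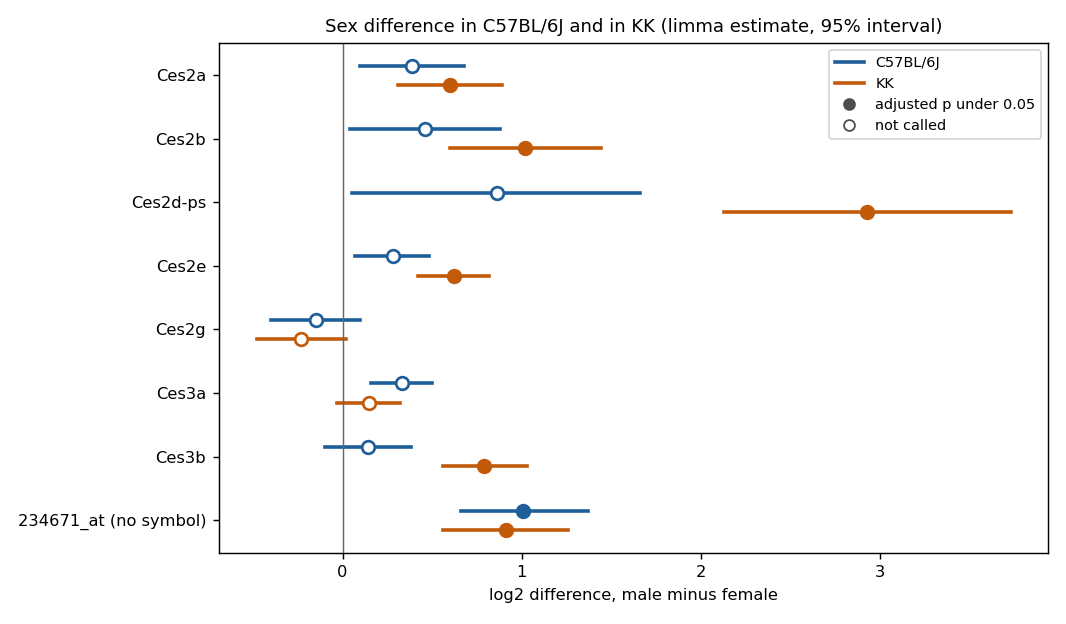
Sex difference (male minus female, log2) of each member and of probe set 234671 in C57BL/6J and in KK, with 95% intervals from limma; filled points have an adjusted p under 0.05. In KK 5 members are filled, from 0.60 for Ces2a to 2.93 for Ces2d-ps, in C57BL/6J no member is, and Ces2g lies below 0 in both strains.

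Whether the sex difference itself changed with strain was tested as the interaction, and 0 of the 7 members were called by limma, where 0.141% of probe sets were. An unadjusted p under 0.05 was found for 3, against 6.35% of all probe sets. Ces2d-ps had a male minus female difference larger in KK than in C57BL/6J by 2.07 log2 (95% interval 0.94 to 3.21, unadjusted p = 0.00186, adjusted p = 0.328 by limma). Ces3b did so by 0.65 (0.32 to 0.99, unadjusted p = 0.00115, adjusted p = 0.255) and Ces2e by 0.34 (0.06 to 0.63, unadjusted p = 0.0234, adjusted p = 0.722). A sex difference particular to KK is therefore not shown for any member.

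Markers of other liver cell types were read beside these results. Of 7 Kupffer cell and macrophage markers, 6 fell in KK males against KK females, where 1.47% of all probe sets were called lower. The 6 included Vsig4, at -1.58, and Clec4f, at -0.97 log2. The mean level of the 7 ranged from 8.29 to 9.08 in KK females and from 7.40 to 7.83 in KK males. Over both sexes 3 of the 7 fell in KK, namely Marco by 0.74, Adgre1 by 0.59 and Clec4f by 0.41, and 4 were not called, from -0.38 for Csf1r to 0.23 for Timd4. In females 1 of the 7 fell in KK and the list's median was -0.00, with group means of 8.60 in C57BL/6J and 8.63 in KK. In males 2 of the 7 fell and the median was -0.68. The part of these markers in the results was not tested. Of 10 hepatocyte markers, 1 rose and 1 fell between the strains, and 1 rose and 0 fell in KK males. Of 6 endothelial markers 2 fell and of 6 stellate cell markers 1 rose between the strains.

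Called and uncalled members lay side by side in the cluster. In RefSeq order on chromosome 8, Ces2a comes first and is followed by Ces2b, Ces2c, Ces2d-ps, Ces2e, Ces2f, Ces2g, Ces3a and Ces3b. Ces2b (0.12 log2 between strains over both sexes, adjusted p = 0.734 by limma) thus lies directly between Ces2a (-1.94) and Ces2c, and Ces3a (0.08, adjusted p = 0.485) directly before Ces3b (-1.06). Of the 11 measured non-member genes within the stretch or up to 5 genes to either side, 1 was called between the strains, the carboxylesterase gene Ces4a next to Ces3b (-0.61, SE 0.11, adjusted p = 0.00325). The other neighbours ranged from -0.17 for the transcription factor gene Cbfb to 0.31 for the phosphatase gene Pdp2. Between the sexes of KK, 0 of the 11 were called by limma, and their differences ran from -0.17 to 0.18. Several of them read low, with group means of 4.92 to 5.02 for Car7, 5.04 to 5.18 for Cdh16 and 5.39 to 5.47 for Rrad. Ces2f read 4.85 to 5.04. A difference in such genes could be missed. Ces4a was also low, at 5.10 to 6.20, with an SD of 0.43 in C57BL/6J males, its highest group.

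**Figure D4:**
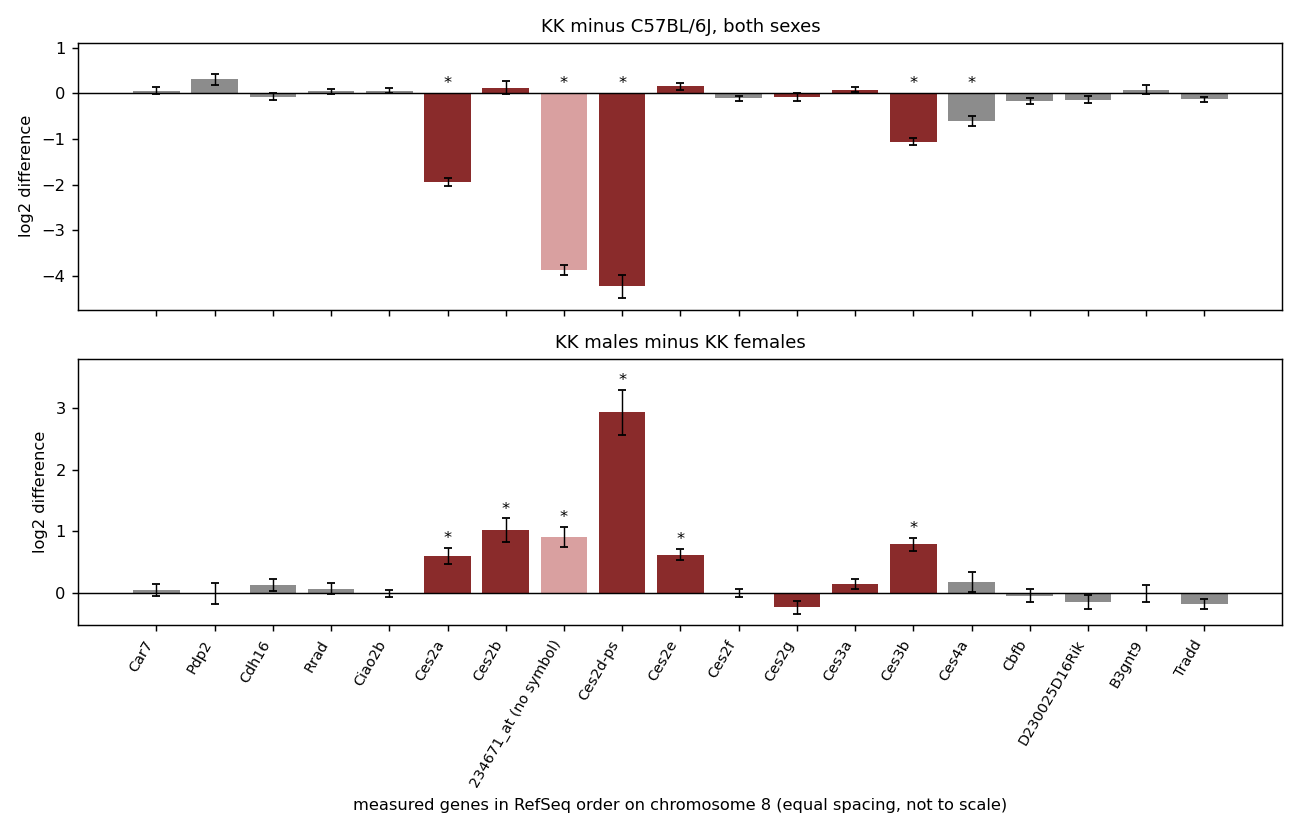
Log2 difference between the strains over both sexes (top) and between males and females of KK (bottom) for the measured genes around the cluster, in RefSeq order on chromosome 8 with equal spacing; bars are limma estimates, whiskers the SE, stars an adjusted p under 0.05, dark red bars members, the pale red bar probe set 234671 at the place of Ces2c, and grey bars other genes. In the upper panel the bars of Ces2a, 234671, Ces2d-ps and Ces3b lie at -1.06 or below, Ces2b and the run from Ces2e to Ces3a stay within 0.15 of 0, and no grey bar exceeds 0.61 in size.

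Of 10 measured carboxylesterases outside the family, 1 rose in KK (Ces1e, an esterase that holds beta-glucuronidase in the endoplasmic reticulum, by 0.56 log2), 3 fell (Ces4a by 0.61, the lipid-handling Ces1g by 0.40 and the plasma carboxylesterase Ces1c by 0.32) and 6 were not called. Those were Ces1d, the triacylglycerol hydrolase once called Ces3, at 0.02, its relative Ces1f at 0.06, Ces1b at -0.10, Ces1a at -0.05, Ces5a at 0.01 and Ces2f, the neighbour of Ces2e and Ces2g, at -0.11. The median of the 10 was -0.07. Ces5a, with group means of 4.41 to 4.46, lay within the range of absent transcripts, and Ces2f, at 4.85 to 5.04, little above it. A fall in KK could therefore not be read for Ces5a or Ces2f. Between the sexes of KK, 1 of the 10 was called, Ces1c, lower in males by -0.35 (adjusted p = 0.0341 by limma), and in C57BL/6J 1 was, Ces4a, higher in males by 0.81 (adjusted p = 0.0282).

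Among 13 measured glyceride lipases and cofactors, 2 fell in KK and 0 rose: the monoacylglycerol lipase gene Abhd6 by 0.93 log2 and Aadac, an arylacetamide deacetylase of the endoplasmic reticulum that like the Ces enzymes hydrolyses drugs and lipids, by 0.87. The hormone-sensitive lipase gene Lipe (-0.21, adjusted p = 0.0646) and Mgll (0.16, adjusted p = 0.267) were not called. Of 14 other ester and epoxide hydrolases, 6 fell and 3 rose, with the hydrolase genes Abhd1 at 2.51, Abhd2 at 1.03 and Abhd10 at -0.52 and the paraoxonase gene Pon1 at -0.25. The median of these lists was -0.03 and -0.15.

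Of 16 nuclear receptors and other regulators of xenobiotic response, 2 fell and 0 rose in KK, the receptor genes Ahr by 0.53 log2 and Nr1i3, which encodes CAR, by 0.25 (adjusted p = 0.0369 by limma). Nr1h3 (-0.13) and the antioxidant regulator Nfe2l2 (-0.17) were not called. The PXR gene Nr1i2, named here because Ces2a is a PXR target, read 9.25, 9.23, 9.39 and 9.21 as the means of C57BL/6J females and males and KK females and males, and differed by 0.06 (adjusted p = 0.760). Of 21 measured CAR and PXR targets, 8 fell and 5 rose, so the list moved both ways: the anion transporter gene Slco1a4 differed by -2.61, the cytochrome P450 genes Cyp2b13 by -2.57 and Cyp2c37 by -1.20, and the heme synthesis gene Alas1 by 1.13. Between the sexes of KK, 3 of these 21 were called lower and 0 higher in males, against 1.47% and 0.698% of all probe sets. The part of CAR and PXR in the Ces2 and Ces3 levels was not tested.

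Products of ester hydrolysis are often conjugated with glucuronic acid. Of 10 measured genes of that pathway, 3 rose in KK and 1 fell: the nucleotide sugar transporter gene Slc35d1 by 0.55 log2, the glucuronosyltransferase genes Ugt2b1 by 0.51 and Ugt2b38 by 0.53, while Ugp2, which makes UDP-glucose, fell by 0.73. In KK males, 3 of the 10 were called higher than in females and 0 lower, against 0.698% and 1.47% of all probe sets. Of 10 genes that retain or fold proteins in the endoplasmic reticulum, where the Ces proteins reside, 1 rose, the KDEL receptor gene Kdelr2 (0.26), 0 fell and 9 were not called, among them Hsp90b1 (-0.18), Kdelr1 (0.13) and P4hb (0.10).

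As a description of arrays that share strain and sex, all named probe sets outside the family were ranked by Pearson correlation with each called member. The 2 genes most like each member over the 12 arrays are given. For Ces2a these were the complement C5 gene Hc (0.99) and Scrn3 (0.984), both on chromosome 2. Hc has group means of 11.63, 11.88, 10.24 and 10.71 in C57BL/6J females and males and KK females and males, the same order as Ces2a. For Ces3b they were the methyltransferase gene Inmt (0.971) and the antitrypsin gene Serpina1d (0.969), and for Ces2d-ps Serpina1d (0.969) and Acbd4 (0.966). Serpina1d has group means of 11.43, 11.42, 8.07 and 9.73 in the same sequence, with KK females lowest, as for both members. For Ces2e they were the fructose transporter gene Slc2a5 (0.964) and the olfactory receptor gene Olfr694 (0.939), and for Ces2b Ccdc30 (0.922) and Cyp2d34 (0.919). Ccdc30 spans only 4.28 to 4.52 in its group means, at the level of absent transcripts. Olfr694 (4.76 to 5.15) and Cyp2d34 (5.38 to 5.63) also read low, so their detection is not shown.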

How the data were processed

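The data were 12 arrays of mouse liver, 1 per mouse, in a table of 21212 probe sets. The deposited values are log2 expression values made with RMA and the affy package, per the submitters' processing notes; versions and the genome build are not given in the sources used here. Single probes and detection calls were not analysed here. A symbol was found for 18786 probe sets through the platform's annotation, checked against RefSeq (GRCm38.p6), and 2420 had none. With several probe sets per gene, the brightest was used.

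All probe sets were fitted together with limma 3.58.1 in R 4.3.3 (lmFit, eBayes; 4 group means, 11.99 degrees of freedom). Tests were two-sided, with Benjamini-Hochberg adjustment across the whole table, and 0.05 was the limit for a call. P-values are limma's, SEs come from the fit, and n is 3 mice per group. The labels give no batch, and nothing says whether mice shared a litter or cage. The scripts were tested on simulated data.

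Family and gene lists were chosen with earlier results of these data known. All members were named, as were up to 4 genes per list with the smallest adjusted p between strains, all other carboxylesterases and the neighbours. For each called member the 2 most correlated genes outside the family were also named. Nr1i2, Vsig4, Timd4, Sis and Fabp2 were named outside this rule, after their values were seen. Folds with low arrays raised to the highest reading of Y-linked genes in females were added after the values were seen. Such folds are point values, carry no sampling error and depend on the level taken for absent transcripts. The number of arrays limits the precision. Alternatives are given at the end.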

Additional observations from a re-analysis of the deposited data

How the results depend on the processing

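Alternative fits used quantile or cyclic loess normalization, the brighter part of the probe sets (above the median mean), a single probe set for each gene, array weights, a robust prior with an intensity trend, a replicate block, the compared groups alone, or 1 array fewer. Ces2b lay below the median mean, and probe set 234671 was left out when each gene had 1. Without any one array, 3 members were called in each of the 3 strain comparisons and 0 for the interaction. The count was 0 to 1 for the sex difference in C57BL/6J and 3 to 5 in KK. Of the other alternatives, only the trend moved a C57BL/6J count, to 1 (Ces3a), and only the fit of the compared groups alone moved the KK count by over 1.5 times, to 3. Differences near 0 changed sign: Ces2e in females (main value -0.02) was 0.02 after quantile and 0.01 after cyclic loess normalization and 0.08 with array weights, and -0.09 to 0.06 without 1 array. Ces3a in males (-0.01) was 0.08 after quantile and 0.04 after cyclic loess normalization and -0.06 to 0.02 without 1 array. Without 1 array, Ces2g ranged from -0.15 to 0.09 in females and from -0.21 to 0.03 for the interaction, and probe set 234671 from -0.27 to 0.06 for the interaction; none of these was called. The cause of these changes was not tested. Deviations from the group means correlated at -0.356 to 0.477 in the 18 pairs with the same replicate number, 10 of them over 0.1. In 36 others they correlated at -0.506 to 0.482, and a smaller part of these pairs lay over 0.1. These values alone do not show whether replicate numbers paired the arrays. The array medians were 5.91 to 5.99 for number 1, 5.97 to 6.03 for number 2 and 5.9 to 5.93 for number 3. More of all probe sets were called in each strain comparison with the replicate block than without it. The source of these differences was not tested. With the replicate block, 3 members were called in each strain comparison, 0 in C57BL/6J and 5 in KK between the sexes, and 0 for the interaction.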
